A study of Mus musculus with 12 samples.

Results

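The 9 genes described here mark the oligodendrocyte lineage, the glial lineage that forms myelin in the brain, and they were followed through the H3K27ac and H3K27me3 peak lists of cells sorted from neonatal mouse cortex. They were taken as a fixed list of 6 precursor genes (Olig1, Olig2, Sox10, Pdgfra, Nkx2-2 and Cspg4) and 3 myelin genes (Myrf, Mbp and Mog), of 21938 protein-coding genes in the annotation. The window of a gene ran from 5 kb upstream of its annotated start to its annotated end, and all 9 genes had a window. Cortex was dissected at P2 (postnatal day 2) from Gad67-GFP heterozygote pups of mixed background that had been outcrossed to CD-1, and every sample pooled tissue from several litters. Cortical interneurons (CINs) were the cells that carried GFP, which in this line is expressed from the locus of a GABA-synthesising enzyme, and non-CINs were all remaining cells, a mixture that includes pyramidal neurons and glia. Native ChIP on MNase-digested chromatin was performed with 2 biological replicates for each mark and population, which gives 8 ChIP samples with 1 peak list each, and 4 input samples that entered only as the control of peak calling.

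H3K27ac (acetylation of lysine 27 on histone H3) marks active promoters and enhancers, and H3K27me3 (trimethylation of the same residue) is laid down by Polycomb complexes at genes held silent. The same histone tail cannot carry both. Oligodendrocyte precursors are specified by the bHLH transcription factor Olig2 and its neighbour and relative Olig1, with the HMG-box factor Sox10 and the homeobox factor Nkx2-2 acting alongside them. They divide in response to PDGF through the receptor Pdgfra and carry the proteoglycan NG2, the product of Cspg4, on their surface. When they differentiate, the transcription factor Myrf switches on genes for myelin proteins such as Mbp, a major structural protein of the sheath, and Mog, a protein of its outer surface. In mouse cortex, myelin forms after the age studied here.

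Fold enrichment, the ratio of ChIP to input signal given by the authors' peak caller, was read only as a percentile within its own list, so 100 is the strongest peak of that list. Peaks no more than 500 bp apart were merged, which left 39327 to 53673 H3K27ac peaks and 26179 to 35980 H3K27me3 peaks in a list. Depth was not given in the lists, and absence of a peak means only that none was called. With 2 lists on each side, an exact two-sided permutation test cannot give a p below 0.333, so no difference between CINs and non-CINs was tested for a single gene. Instead, a gene was counted when both values of one population lay above both values of the other, and the count was set beside the percentage of all protein-coding genes that met the same condition. The sorted populations were read against marker lists. Of 12 interneuron genes, 8 had more H3K27ac-covered bases in both CIN lists and 0 had more in both non-CIN lists, where 11.9% and 12.5% of all protein-coding genes did. Of 6 astrocyte genes, 0 had more in CINs against 5 had more in non-CINs, but all 6 had an H3K27ac peak in both CIN lists, as did 59.6% of all genes. The part of such glial marks in the values below was not tested. All 12 interneuron genes had an H3K27me3 peak in both CIN lists and in both non-CIN lists (23.7% and 24.9% of all genes). Their H3K27me3-covered bases were higher in CINs for 0 and in non-CINs for 2 (3.05% and 4.56% of all genes). Their H3K27me3 percentiles were higher in CINs for 0 and in non-CINs for 8 (3.93% and 5.68%). Because both populations are bulk mixtures, more cells that carry a mark and more of the mark in each cell cannot be told apart in any of the values that follow.

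The sequences that bear on the 2 marks are given first, since the 5 promoters differ in how they were marked. RefSeq promoter sequences (GRCm38.p6) were matched for 5 of the 9 members, Olig2, Pdgfra, Nkx2-2, Cspg4 and Mog; Olig1, Sox10, Myrf and Mbp had no entry. Each run below is written 5′ to 3′ on the strand of the gene, ends before the first exon of the coding transcripts in GENCODE, and has its CpG dinucleotides in capitals, because CpG-rich promoters are where Polycomb complexes are commonly found.
Olig2 (chr16:91225300-91225456, plus strand): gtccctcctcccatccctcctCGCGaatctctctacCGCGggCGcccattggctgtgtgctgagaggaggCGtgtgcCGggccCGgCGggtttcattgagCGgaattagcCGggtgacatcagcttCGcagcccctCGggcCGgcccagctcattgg
Nkx2-2 (chr2:147186405-147186652, minus strand): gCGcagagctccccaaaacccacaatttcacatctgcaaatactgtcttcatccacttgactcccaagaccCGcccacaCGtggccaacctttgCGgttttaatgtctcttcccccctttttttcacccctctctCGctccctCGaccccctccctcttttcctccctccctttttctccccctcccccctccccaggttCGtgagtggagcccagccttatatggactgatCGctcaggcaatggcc
Pdgfra (chr5:75152001-75152250, plus strand): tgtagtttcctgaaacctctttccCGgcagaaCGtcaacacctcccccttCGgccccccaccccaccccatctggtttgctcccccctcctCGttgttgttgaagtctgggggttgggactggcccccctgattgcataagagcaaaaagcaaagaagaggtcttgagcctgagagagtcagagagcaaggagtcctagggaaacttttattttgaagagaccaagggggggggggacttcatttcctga
Cspg4 (chr9:56864854-56865032, plus strand): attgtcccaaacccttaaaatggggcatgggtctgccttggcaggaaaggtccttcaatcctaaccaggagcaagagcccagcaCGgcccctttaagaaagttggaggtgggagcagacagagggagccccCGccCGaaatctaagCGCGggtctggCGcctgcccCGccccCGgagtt
Mog (chr17:37023399-37023648, minus strand): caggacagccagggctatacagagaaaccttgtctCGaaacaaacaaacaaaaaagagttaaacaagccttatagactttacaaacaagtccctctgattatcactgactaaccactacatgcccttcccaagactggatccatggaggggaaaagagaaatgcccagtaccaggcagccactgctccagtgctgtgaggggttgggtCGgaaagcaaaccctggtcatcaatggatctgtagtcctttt

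Counted over the full 250 bases before the RefSeq start, the Olig2 promoter held 22 CpG, more than 85.2% of the 32851 promoters in the table, whose median was 6. The promoter of Mog held 2, and only 18.8% of promoters held fewer. Cspg4 had 12, Nkx2-2 had 8 and Pdgfra had 4. All 250 bases at Olig2 lay under an H3K27ac peak and an H3K27me3 peak in each of the 8 lists. At Pdgfra, all 250 bases lay under H3K27me3 in all 4 lists and none under H3K27ac. At Cspg4 the reverse held for H3K27ac, which covered 250 bases in 3 lists and 55 in the second non-CIN list, while H3K27me3 was present in the second CIN list only. At Nkx2-2 the lists differed, since H3K27ac covered 250 and 32 bases in the CIN lists but 0 and 250 in the non-CIN lists, and H3K27me3 covered 250 bases in 3 lists and 91 in the second non-CIN list. The 250 bases at Mog lay under no peak of either mark in any list. Of the motifs searched on both strands, the SOX core ACAAAG was found in 0 of the 5 promoters (16.5% of all promoters of this length hold it), the E-box CATCTG in Pdgfra and Nkx2-2 (14.4%), and the palindromic E-box CAGCTG in 0 (13.0%). These counts hold for the promoter window only, and other sequence printed below holds ACAAAG (upstream of Pdgfra) and CATCTG (upstream of Mog).

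Olig1, Olig2, Sox10, Pdgfra and Nkx2-2 each held bases that lay under an H3K27ac peak and an H3K27me3 peak in every one of the 8 lists, CINs and non-CINs alike. This was the case for 5 of the 9 members and for 148 of the 21938 protein-coding genes (0.675%), a count made after the values had been seen. The length was 5479 bp at Olig2 and 4268 bp at Nkx2-2, the fourth and the sixth longest among those 148 genes. Olig1 held 1352 bp, Sox10 held 324 bp and Pdgfra held 152 bp. None of the 3 myelin genes nor Cspg4 held any. Olig2 and Nkx2-2 kept such bases when only peaks with −log10 q of at least 4, or only the strongest 30000 peaks of each list, were used, whereas Olig1, Sox10 and Pdgfra did not, so for these 3 genes the shared bases rested on weaker peaks.

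The position of the shared bases differed from gene to gene. At Olig2 the longest of 3 stretches spanned the start of the gene, from -2790 to 1325 bp relative to it. At Sox10 the single stretch also lay at the start, from -302 to 21 bp. At Olig1 it lay in the gene, from 810 bp to 2161 bp downstream of the start. Nkx2-2 had 5 stretches, the longest being 2581 bp from chr2:147186843-147189423, just upstream of the start sites of its coding transcripts (147186101 to 147186404). The annotated gene record of Nkx2-2 is longer than these transcripts and starts at 147194243, and the antisense genes Nkx2-2os and 6430503K07Rik overlap it. At Pdgfra the stretch lay from -859 to -708 bp, outside the promoter printed above, and is shown because it is the only part of the Pdgfra window under both marks in all 8 lists (plus strand of the genome, CpG in capitals, 5 of them).
Pdgfra upstream (chr5:75151433-75151584, plus strand): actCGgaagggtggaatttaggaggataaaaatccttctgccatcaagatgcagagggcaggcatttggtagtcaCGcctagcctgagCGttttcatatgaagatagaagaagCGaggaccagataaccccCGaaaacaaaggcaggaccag

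**Figure D1:**
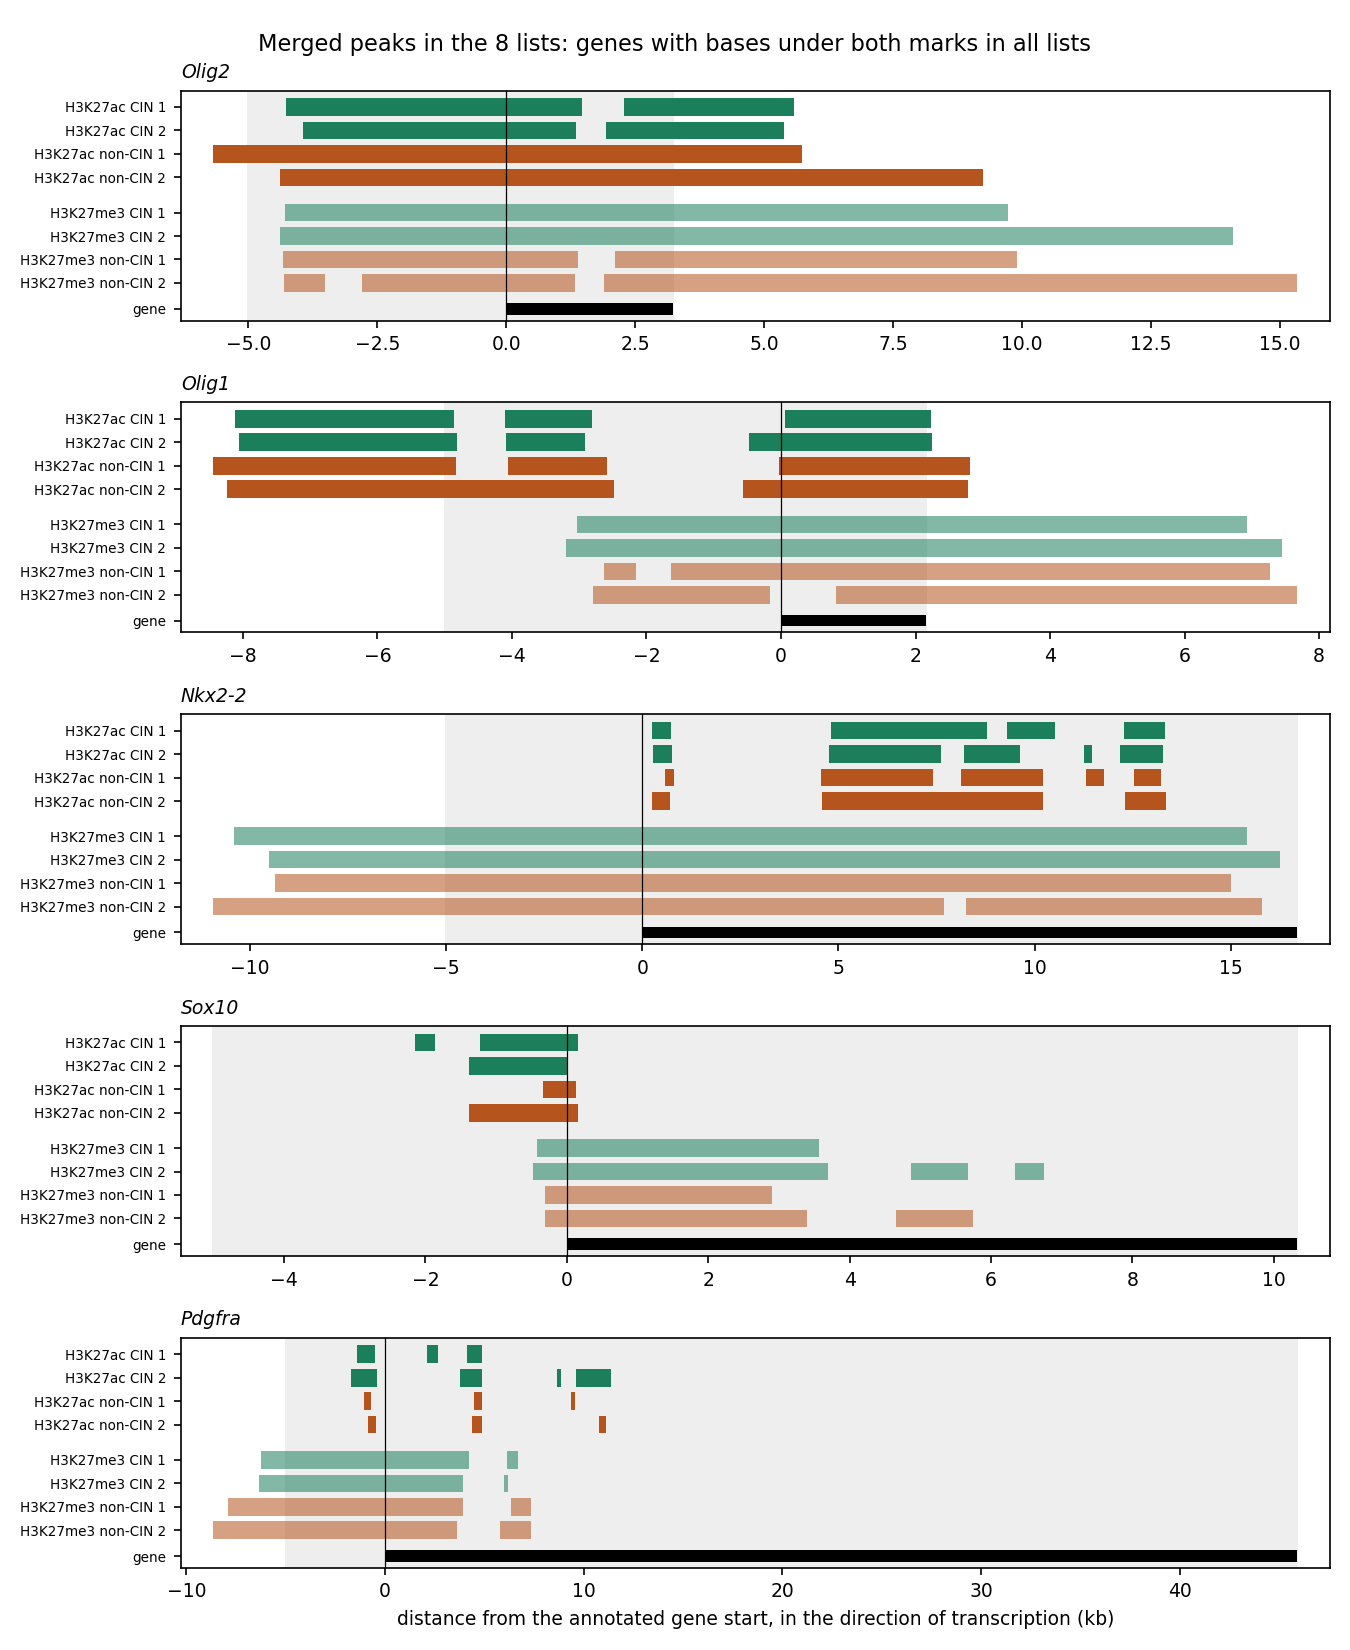
Merged peaks at Olig2, Olig1, Nkx2-2, Sox10 and Pdgfra by distance in kb from the annotated gene start (vertical line), 1 row for each of the 8 lists (green CINs, orange-brown non-CINs; dark H3K27ac, pale H3K27me3); the grey area is the window and the black bar the gene. Gaps of 500 bp or less were closed by merging. As merged, the non-CIN H3K27ac peak at Olig2 is 1 unbroken block where the CIN peak is in 2 pieces, and the reverse holds for H3K27me3.

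Within a population, both marks over the same bases in both replicate numbers were found at the same 5 members in CINs (2.70% of all protein-coding genes) and at the same 5 in non-CINs (1.71%). The H3K27ac and H3K27me3 lists of a sample pair share the input of their population. At Olig2 the extent differed by population. In both CIN lists all of the H3K27ac-covered bases were also under H3K27me3 (6675 and 6590 bp), whereas in both non-CIN lists it was the H3K27me3-covered bases that all lay under H3K27ac (6822 and 6242 bp). At Nkx2-2, a broad H3K27me3 domain enclosed nearly all H3K27ac, with 92.2% to 100% of H3K27ac-covered bases inside it. At Pdgfra, bases under both marks came to 1573 and 1457 bp in the CIN lists and 349 and 403 bp in the non-CIN lists, which did not overlap. Sox10 had 578 and 494 bp in the CIN lists and 436 and 467 bp in the non-CIN lists.

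H3K27ac at Olig2 was stronger and covered more bases in non-CINs than in CINs. The strongest H3K27ac peak ranked at percentiles 66.2 and 73.6 in the CIN lists and at 87.8 and 91.0 in the non-CIN lists. Of the 8221 bp window, 6675 and 6590 bp were covered in the CIN lists and 8221 and 7602 bp in the non-CIN lists, a difference between means of 1279 bp (CINs 6632 ± 60.1, non-CINs 7912 ± 438; SD, n = 2 each). The populations did not overlap in either measure. In CINs the mark was broken into 2 peaks by a gap of 813 bp (replicate 1) and 579 bp (replicate 2) inside the gene, starting 1.47 and 1.35 kb after its start. In non-CINs the same stretch was covered after merging, and the merged peak was 11.4 and 13.6 kb long, the 50th and the 38th longest of all merged H3K27ac peaks in those lists. Gaps of 500 bp or less were closed by merging, so shorter breaks in the non-CIN lists would not be seen here.

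H3K27me3 at Olig2 was the other way round. The window was covered over 7510 and 7605 bp in the CIN lists and 6822 and 6242 bp in the non-CIN lists, and the strongest peak ranked at 95.2 and 94.6 in CINs against 90.3 and 90.2 in non-CINs. The populations did not overlap in either measure, although all 4 percentiles were above 90, and the separation in covered bases was lost when these were divided by the covered length of the list. In CINs the domain was unbroken after merging, with the same limit on shorter gaps, and was 14.0 and 18.5 kb long. In both non-CIN lists it was broken by gaps of 723 and 560 bp at the same place in the gene at which the CIN H3K27ac was broken, from 1.38 and 1.33 kb after the start, and replicate 2 had a further gap of 734 bp upstream.

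Olig1, which lies on the same chromosome downstream of Olig2, showed the same order for H3K27ac strength. The strongest peak that reached into its window ranked at 79.5 and 84.9 in CINs against 93.2 and 96.5 in non-CINs. This peak lay mostly outside the window, between -8.44 and -4.82 kb relative to the start in all but the second non-CIN list, in which it was joined to the next peak and reached to -2.48 kb. The peak over the gene itself ranked at 24.9 and 55.4 in CINs against 59.7 and 82.6 in non-CINs, so the populations did not overlap there either. Covered bases overlapped for H3K27ac, with 3538 and 4002 bp in the CIN lists and 3830 and 5241 bp in the non-CIN lists. Compared within replicate numbers, they were higher in non-CINs, as they were for 19.9% of all genes. H3K27me3 covered 5198 and 5354 bp in the CIN lists and 4277 and 3980 bp in the non-CIN lists, with no overlap, a separation that was lost without the upstream part of the window and with 10 kb on both sides of the gene. Its strongest H3K27me3 peak ranked at 87.5 and 93.0 in CINs against 89.6 and 83.6 in non-CINs, with overlap. The annotated start of Olig1 lay under H3K27me3 in 3 lists but not in the second non-CIN list, which had a gap of 973 bp there.

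Nkx2-2 stood out for the extent of H3K27me3. Its window was covered over 94.1% and 98.0% in CINs against 92.3% and 93.3% in non-CINs, more than in 99.1% of protein-coding genes in every list. The domain was 25.8 kb long in both CIN lists and 24.4 kb in the first non-CIN list, the 81st, 105th and 94th longest of their lists, and was split into 18.6 and 7.56 kb in the second non-CIN list. In covered bases and in the percentile of the strongest peak (99.5 and 99.6 in CINs, 99.0 and 99.4 in non-CINs), both CIN values were above both non-CIN values, by small margins. In covered bases this was lost when they were divided by the covered length of the list, with −log10 q of at least 4, with RefSeq gene ends and with 5 kb on both sides of the start, and in percentile it was lost at that q threshold. H3K27ac lay inside this domain, with 6738 and 6060 bp in the CIN lists and 6316 and 7173 bp in the non-CIN lists, which overlapped. Its strongest peak ranked at 58.0 and 72.8 in CINs against 83.0 and 76.5 in non-CINs, with no overlap and a gap of only a few points between the nearest values. Of the coding start sites, H3K27ac covered both in the first CIN list and the second non-CIN list, only the inner one (147186101) in the first non-CIN list and neither in the second CIN list, and H3K27me3 covered both in all lists but the second non-CIN list, where it covered neither.

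Pdgfra had the reverse order of Olig2 in covered bases. H3K27ac covered 2228 and 4405 bp in the CIN lists and 981 and 1283 bp in the non-CIN lists (means 3316 ± 1540 and 1132 ± 214; SD, n = 2), 2.93 times as much in CINs, in short peaks upstream of the start and in the first part of the gene. The populations were no longer apart at Pdgfra with −log10 q of at least 4 or with the strongest 30000 peaks of each list. The strongest of these peaks ranked only at 49.4 and 54.5 in CINs against 35.8 and 56.3 in non-CINs, with overlap. None of the annotated starts of the coding transcripts lay under an H3K27ac peak in any list. H3K27me3 covered the 5 kb upstream in full in all 4 lists, and over the window covered 9789 and 9167 bp in the CIN lists and 9934 and 10216 bp in the non-CIN lists. Its strongest peak ranked at 97.7 and 98.2 in CINs against 99.1 and 98.9 in non-CINs. Both H3K27me3 measures were thus higher in both non-CIN lists, but the difference in covered bases, 597 bp, was 1.06 times, and it was lost when covered bases were divided by the covered length of the list and with peaks of −log10 q of at least 4. With 5 kb on both sides of the start as the window its direction turned, and both CIN lists were above both non-CIN lists.

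Sox10 was marked by H3K27me3 in its first part and by H3K27ac just upstream, and the values of the populations overlapped in both measures of both marks when the lists were compared without regard to replicate number. H3K27me3 covered 3985 and 5376 bp in the CIN lists and 3205 and 4809 bp in the non-CIN lists, with percentiles of 92.4 and 83.8 against 94.4 and 82.4. H3K27ac was weak, at 1671 and 1408 bp in the CIN lists and 471 and 1545 bp in the non-CIN lists, and its strongest peak ranked at 17.6 and 40.9 in CINs against 4.86 and 39.0 in non-CINs. The percentile of H3K27ac was lower in the first replicate of both populations. Of the annotated coding starts of Sox10, the outer one (79165240) lay under H3K27ac and H3K27me3 in all 4 lists of each mark, and the inner one (79164490) under H3K27me3 alone.

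Cspg4 was the only precursor gene with almost no H3K27me3, which was called in the second CIN list alone (726 bp over the start, percentile 38.8). H3K27ac covered 5169 and 4697 bp in the CIN lists and 6322 and 4642 bp in the non-CIN lists, in 5 and 4 peaks in CINs against 5 and 4 in non-CINs, most of which recurred between lists inside the gene. The strongest peak ranked at 67.4 and 45.2 in CINs against 54.6 and 60.7 in non-CINs. Both measures overlapped between the populations. The window of Cspg4 also holds the start of the divergent gene Odf3l1, so the peak over the start of Cspg4 cannot be assigned to one of them.

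**Figure D2:**
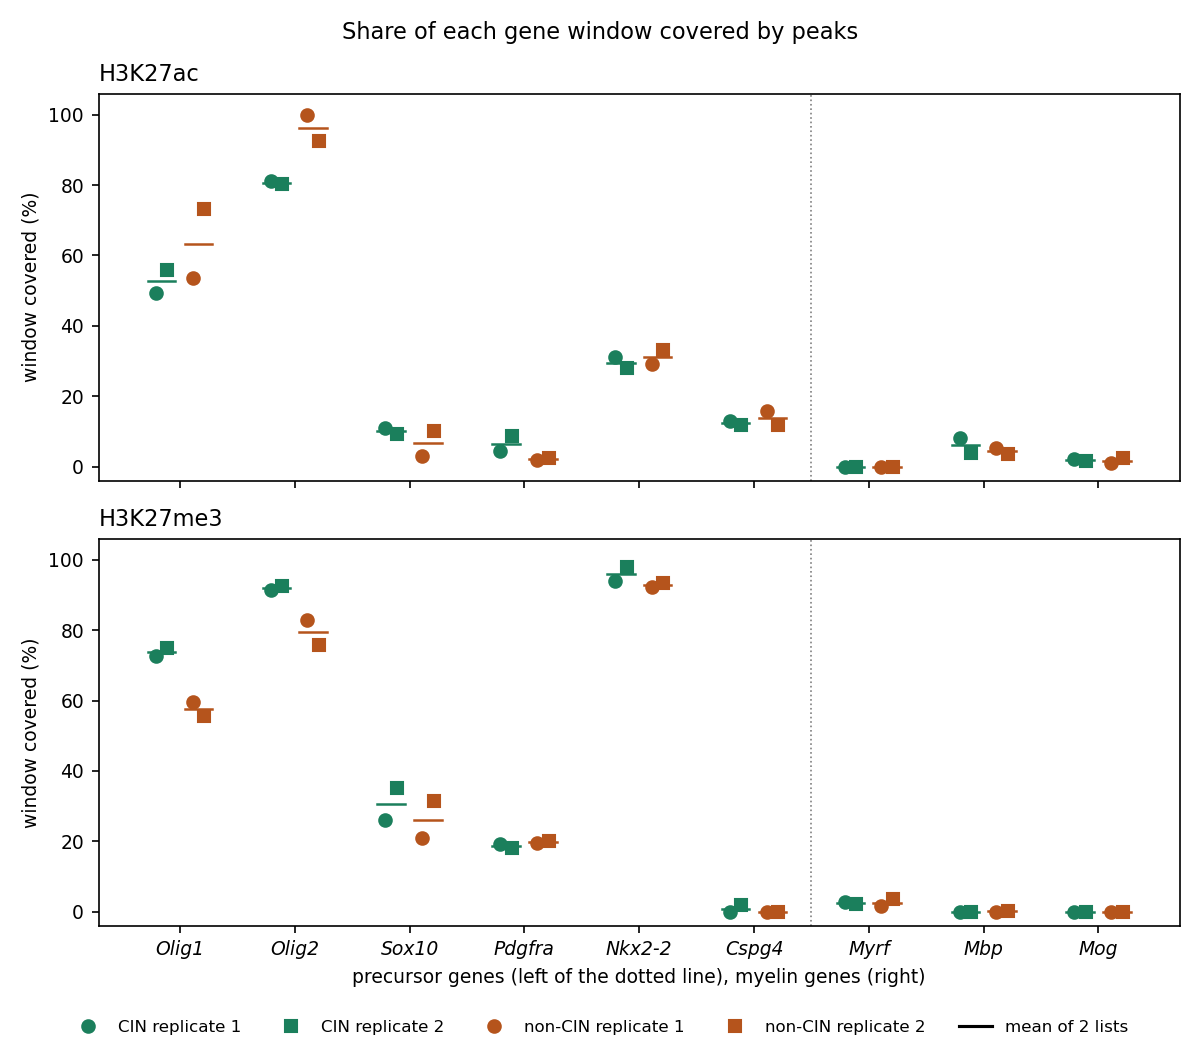
Percentage of each gene window covered by merged peaks (y axis) for the 9 genes, 1 point for each list (circles replicate 1, squares replicate 2; green CINs, orange-brown non-CINs) and a short line for the mean of 2 lists. Olig2 and Nkx2-2 reach above 90% for H3K27me3, while the 3 myelin genes stay at or below 8.22% for either mark.

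Counted over the 9 members, H3K27ac percentiles were above in both non-CIN lists for Olig1, Olig2 and Nkx2-2, 3 of 9 where 10.5% of all protein-coding genes met the condition. They were above in both CIN lists for 1 member, Mog (13.9% of genes), at percentiles of 99.5 and 99.8 in CINs against 98.9 and 99.5 in non-CINs, where the nearest values differed only in the second decimal. For H3K27ac-covered bases there was 1 member in each direction, Pdgfra higher in CINs (11.9%) and Olig2 higher in non-CINs (12.5%), which is close to the percentage over all genes. For H3K27me3-covered bases, Olig1, Olig2 and Nkx2-2 were higher in CINs, 3 of 9 where 3.05% of genes were, and Pdgfra was higher in non-CINs (4.56%). For H3K27me3 percentiles, Olig2, Nkx2-2 and Myrf were higher in CINs, 3 of 9 where 3.93% of genes were, and Pdgfra was higher in non-CINs (5.68%). With the window widened to 10 kb on both sides of the gene, H3K27me3-covered bases were higher in both CIN lists for 0 members, so this difference at Olig1, Olig2 and Nkx2-2 was not present over the wider window. With covered bases divided by the covered length of the list, the members higher in CINs were 2, Olig1 and Sox10, where 6.03% of genes were. A gene without a peak cannot meet these conditions, and peaks of both marks were more frequent among members than among genes in general. Of the 14672 genes with an H3K27ac peak in at least 1 list, covered bases were higher in CINs for 17.8% and in non-CINs for 18.8%. H3K27ac percentiles were higher in CINs for 20.8% of them and in non-CINs for 15.6%. Among the 8941 genes with an H3K27me3 peak in at least 1 list, the percentages higher in CINs were 7.48% for covered bases and 9.64% for percentiles, and those higher in non-CINs were 11.2% and 13.9%, so that Pdgfra as 1 of 9 was at about the general rate.

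**Figure D3:**
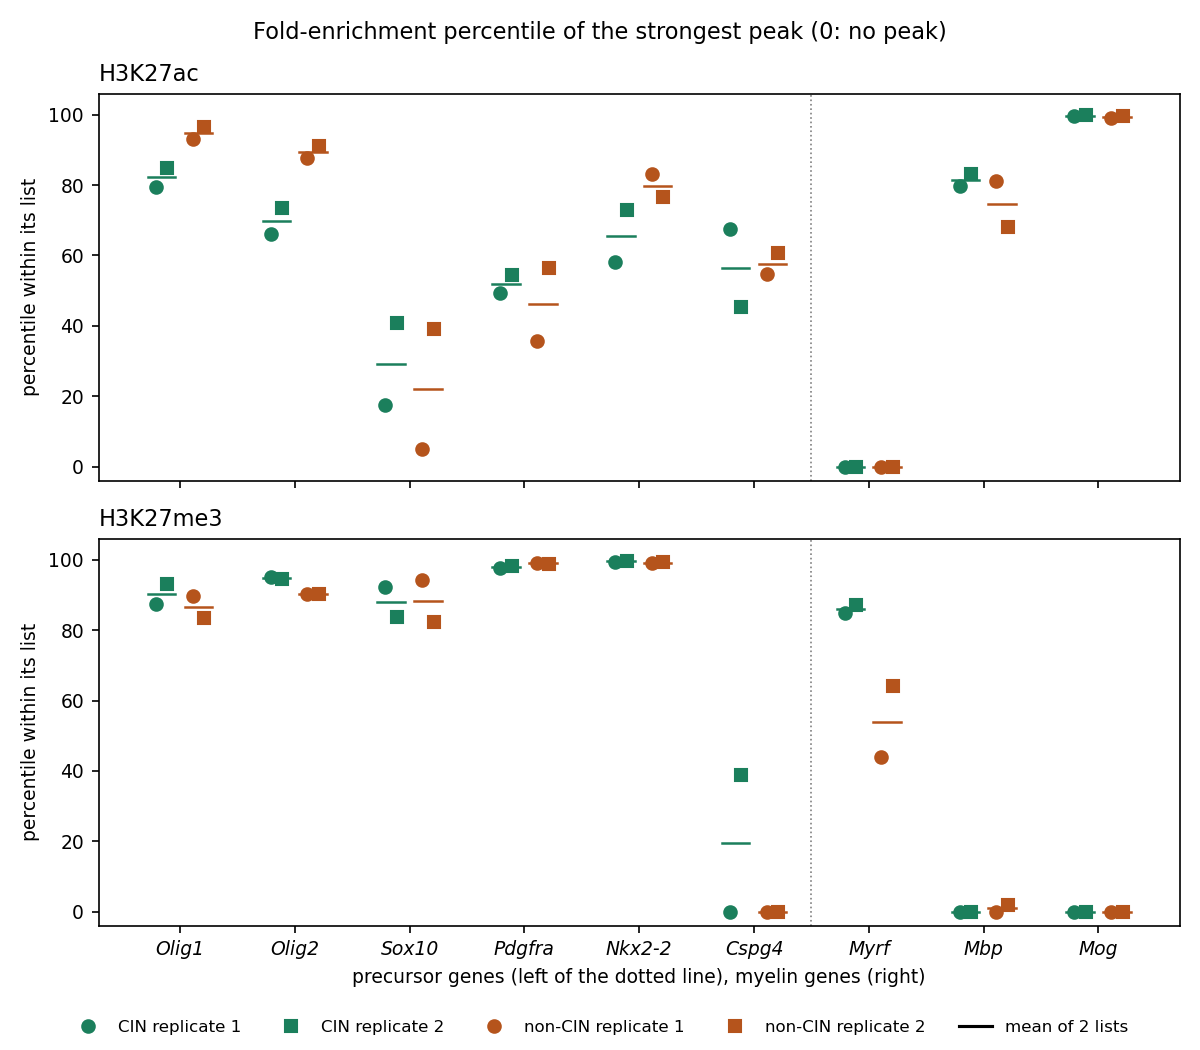
Percentile of the strongest merged peak within its list (y axis; 0 where no peak was called) for the 9 genes, with points and lines as in the plot of covered share. For H3K27ac, the non-CIN points of Olig1, Olig2 and Nkx2-2 lie above their CIN points; for H3K27me3, those of Myrf lie below.

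Regions shared by the peaks of both replicates that had no overlap with a peak of the other population came to 4182 for H3K27ac in CINs, 2775 in non-CINs, 710 for H3K27me3 in CINs and 1286 in non-CINs, and 0 of each fell in the 9 windows. Such regions were uncommon in gene windows in general, being present in 6.80%, 6.85%, 1.38% and 2.09% of all protein-coding genes in that order, so none in 9 windows is not far from the general rate. Peaks of a single list did occur, such as an H3K27ac peak of 547 bp in the first CIN list, 2101 to 2647 bp after the start of Pdgfra, and without merging 1 region with H3K27ac in CINs alone lay in the Pdgfra window. The nearest such region to Olig2 was a stretch of 77 bp with H3K27me3 in CINs only, 6.87 kb outside its window (chr16:91213512-91213588). Downstream of Olig1, a CIN-only H3K27me3 region of 1069 bp lay 28.9 kb away (chr16:91300847-91301915) and a non-CIN-only H3K27ac region of 305 bp lay 37.8 kb away (chr16:91309754-91310058). Next to Pdgfra, a CIN-only H3K27ac region of 1103 bp lay 40.4 kb beyond the window (chr5:75238618-75239720).

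Among the 9 members, the median share of the window under a peak was greater over precursor genes than over myelin genes for both marks. The median H3K27ac-covered share of the window was between 19.9% and 22.5% over the 6 precursor genes in the 4 lists and between 0.923% and 2.37% over the 3 myelin genes, against 1.70% to 2.76% over all protein-coding genes. For H3K27me3 the median share was 40.3% to 54.9% over precursor genes and 0% to 0.257% over myelin genes. The median of all genes was 0%. In the same lists the median was 63.0% to 80.7% over the 12 interneuron genes and 66.2% to 69.8% over 8 pyramidal neuron marker genes. Over 6 marker genes each it was 0% to 0.525% for astrocytes, 0% for microglia and 3.83% to 4.0% for endothelial cells. The precursor genes were not alike, however, since Olig2 had the largest H3K27ac share (80.2% to 100%) and Pdgfra the smallest (1.93% to 8.65%) in each list. Shares are per window length, and the windows of the precursor genes were 7.16 to 50.9 kb long and those of the myelin genes 17.7 to 115 kb. The difference between the classes kept its direction with every other window, peak threshold and gene model tried. The difference for H3K27ac was 19.0 percentage points in CINs against 20.8 in non-CINs, and fell to 8.35 and 10.8 when Myrf, a regulator with no H3K27ac peak, was moved to the precursor genes. In CINs it was also 9.1 with −log10 q of at least 4, 8.49 with the strongest 30000 peaks and 9.78 with 10 kb on both sides of the gene, where it was 10.3 in non-CINs. For H3K27me3 the difference was 52.1 percentage points in CINs and 41.8 in non-CINs. It was 30.5 and 26.1 with Myrf moved, and 85.9 and 74.9 with 5 kb on both sides of the start.

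An H3K27ac peak was present in both CIN lists for 8 of the 9 members (59.6% of all protein-coding genes) and in both non-CIN lists for the same 8 (58.5%), Myrf being the exception in each. With 10 kb on both sides of the gene, all 9 had one in both lists of each population (65.5% and 64.8% of genes). With −log10 q of at least 4, the counts were 7 in CINs and 6 in non-CINs (56.1% and 55.1%). An H3K27me3 peak was present in both CIN lists for 6 members (23.7%) and in both non-CIN lists for the same 6 (24.9%), namely Olig1, Olig2, Sox10, Pdgfra, Nkx2-2 and Myrf. Cspg4, Mbp and Mog had it in both lists of neither population.

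The 3 myelin genes each had a different pattern. Myrf carried H3K27me3 and no H3K27ac. Its H3K27me3 was a single peak of 1088 and 833 bp in the CIN lists and 625 and 1339 bp in the non-CIN lists, which began 166 to 397 bp downstream of the annotated start in each list. The peak ranked at 84.8 and 87.3 in CINs against 43.9 and 64.1 in non-CINs, a difference of 32.0 points between means (86.0 ± 1.81 and 54.0 ± 14.3; SD, n = 2), the largest difference of any member in an H3K27me3 percentile, while covered bases overlapped. The nearest H3K27ac peak lay 25.9 kb or more from its start in every list.

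Mbp carried H3K27ac and almost no H3K27me3. H3K27ac covered 9491 and 4579 bp in the CIN lists and 5979 and 4022 bp in the non-CIN lists, in 11 and 5 peaks and in 10 and 5 peaks, and the first replicate was the higher in both populations. The strongest peak ranked at 79.8 and 83.0 in CINs against 81.2 and 68.2 in non-CINs. None of these values separated the populations when the lists were compared without regard to replicate number. Compared within replicate numbers, covered bases were higher in CINs, as they were for 19.3% of all genes. The gene has an upstream group of coding starts, from which the long Golli transcripts begin, and a downstream group of 11 coding starts, 79324 bp further on, which includes those of the classic myelin proteins. A peak lay over the upstream starts in the first replicate of each population only, and the downstream starts lay 2887 to 3373 bp from the nearest H3K27ac peak in all 4 lists. H3K27ac peaks recurred inside the gene in all 4 lists, among them one at 32.5 to 33.9 kb and another at 73.0 to 75.3 kb after its start. The single H3K27me3 peak, 297 bp long and upstream of the start in the second non-CIN list, ranked at 1.96.

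Mog had no peak of either mark over its body or its start. Its top H3K27ac percentile, which was the highest of any member, came from an H3K27ac peak whose edge alone reached into the window, over 163 to 418 bp. This peak ranked at 98.9 or above in all 4 lists, and its shared part (chr17:37028236-37029449, 1214 bp) lay between Mog and Gabbr1, which encodes a GABA-B receptor subunit. It was 4583 to 4838 bp from the start of Mog and 15.6 to 16.5 kb from that of Gabbr1, with no annotated gene over it. Without the 5 kb upstream of the gene, Mog had no H3K27ac peak at all. The central 300 bases of the shared part, with CpG in capitals (9 of them), are given because this element alone placed Mog among the strongest H3K27ac peaks.
Peak upstream of Mog (chr17:37028693-37028992, plus strand): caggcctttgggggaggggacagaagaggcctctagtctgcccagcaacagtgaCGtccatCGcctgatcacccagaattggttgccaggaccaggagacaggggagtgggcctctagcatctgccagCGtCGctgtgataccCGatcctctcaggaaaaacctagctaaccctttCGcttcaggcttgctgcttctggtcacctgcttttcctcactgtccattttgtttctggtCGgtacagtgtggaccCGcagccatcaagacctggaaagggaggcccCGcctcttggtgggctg

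**Figure D4:**
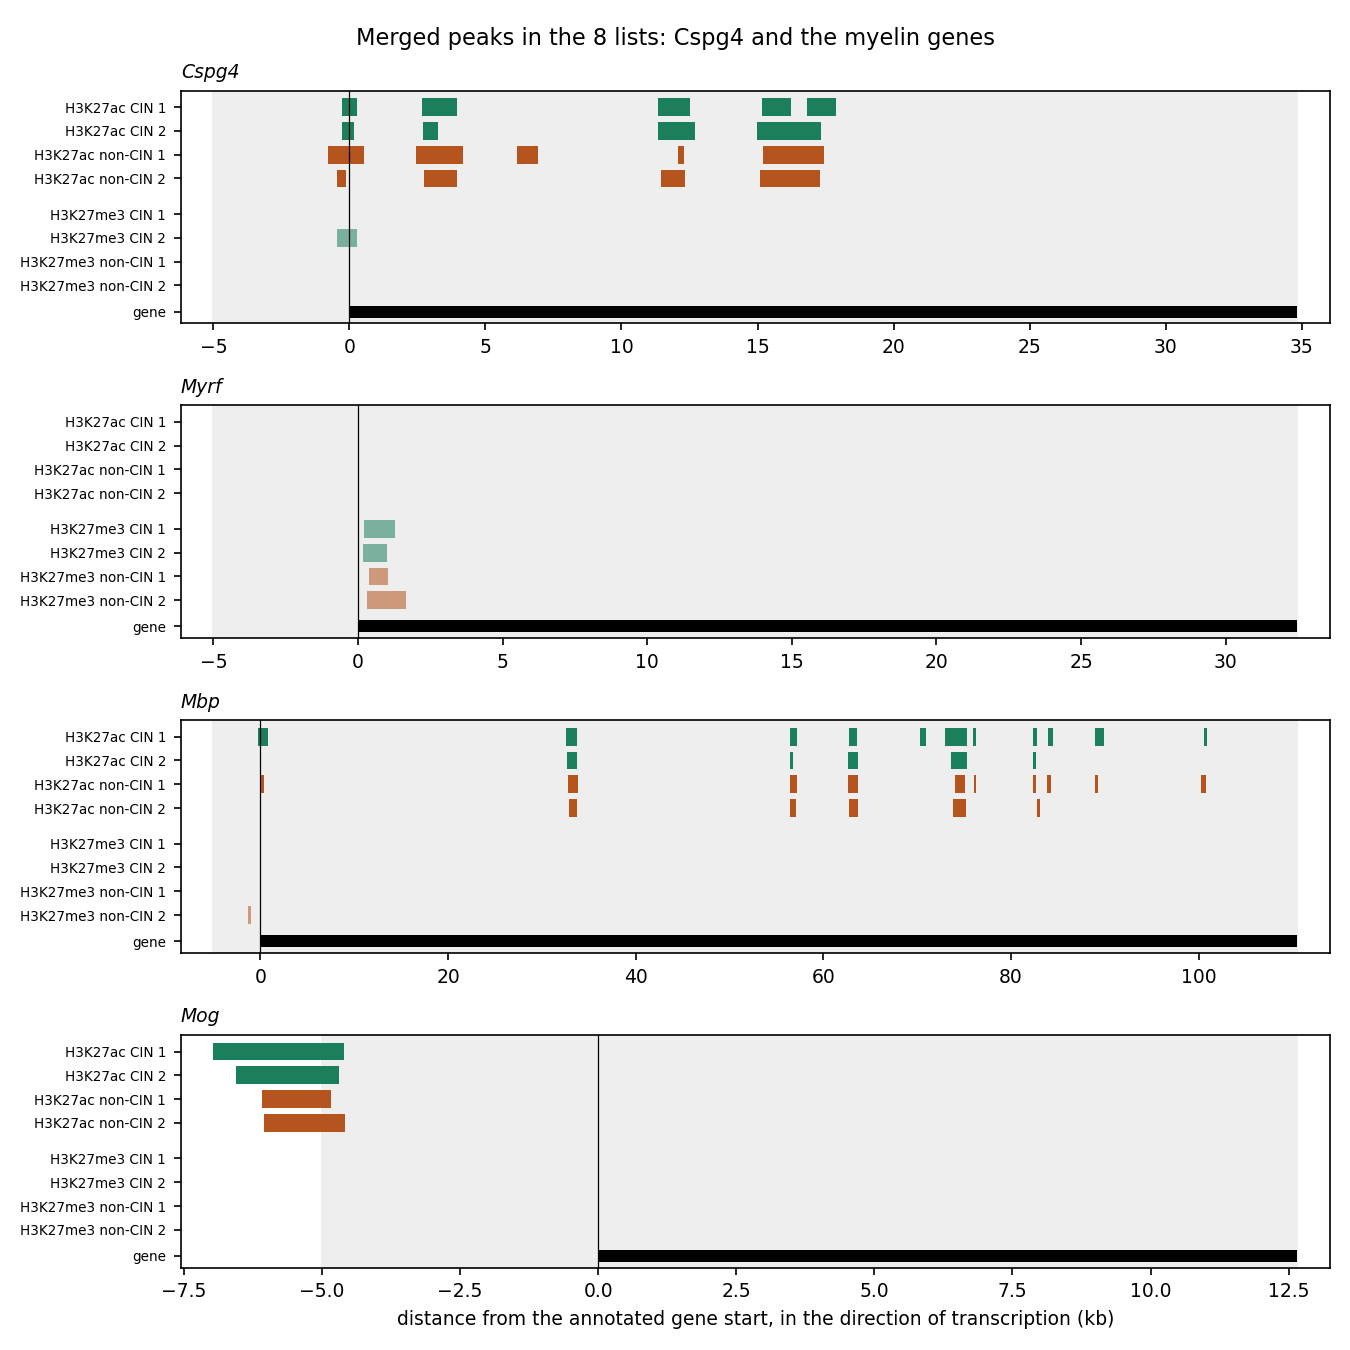
Merged peaks at Cspg4, Myrf, Mbp and Mog by distance in kb from the annotated gene start, drawn as in the map of the genes under both marks. Myrf has H3K27me3 alone, next to its start; the H3K27ac peaks of Mog lie at the outer edge of its window; and no H3K27ac peak of Mbp lies at its downstream starts, 79324 bp after the gene start.

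Among the other genes of the lineage, the classes differed less. The median H3K27ac share was 3.86% to 5.12% over 16 further precursor and early genes and 0.246% to 2.15% over 18 further myelin genes. The median H3K27me3 share over the former was 1.35% in both CIN lists, 0.814% in the first non-CIN list and 1.23% in the second, and over the latter 0.526% and 3.5% in the CIN lists, then 0.832% and 4.26% in the non-CIN lists, so it was higher over myelin genes in 3 of 4 lists. These genes were divided between the populations in both directions. Of the 16 precursor and early genes, H3K27ac-covered bases were higher in both CIN lists for 6 and in both non-CIN lists for 4 (11.9% and 12.5% of all genes). Of the 18 myelin genes, the counts were 4 and 4. For H3K27me3-covered bases they were 2 and 2 of the 16 and 1 and 1 of the 18 (3.05% and 4.56% of all genes). Zfp488, a nuclear factor of oligodendrocyte differentiation, was covered by H3K27ac over 21.8% and 16.6% of its window in CINs against 9.42% and 9.44% in non-CINs. Tcf7l2, a transcription factor of Wnt signalling that marks newly forming oligodendrocytes, was the reverse, with 10120 and 7655 bp covered in the CIN lists and 21593 and 13752 bp in the non-CIN lists. Sox8, a relative of Sox10, was covered over 53.7% and 50.7% in CINs against 53.9% and 56.9% in non-CINs, and had no H3K27me3 peak in any list. Among myelin genes, Cnp, which encodes an enzyme abundant in oligodendrocytes, had 4272 and 5409 bp covered in the CIN lists and 5894 and 7558 bp in the non-CIN lists. Opalin, a membrane protein gene of oligodendrocytes, had H3K27ac in both CIN lists (5.68% and 3.07%) and in neither non-CIN list. Gal3st1, which encodes the enzyme that makes sulfatide, had 6.55% and 6.98% in CINs against 2.91% and 5.61% in non-CINs.

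The genes whose percentiles over the 8 lists lay closest to those of a member were found by Euclidean distance, with 0 where no peak was called, as a description. For Olig2 these were Adrb1 (distance 7.79), Rora (11.7) and Iqsec1 (13.3). Adrb1, the beta-1 adrenergic receptor gene, had H3K27ac percentiles of 64.8 and 71.5 in CINs against 86.8 and 86.3 in non-CINs. The nearest genes to Sox10 were farther from it, namely Syk (25.2), Irf5 (27.3) and Ntf3 (30.4). For Myrf they were Mapk12 (9.78), Plcxd3 (9.91) and Fam187b (11.7).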

How the data were processed

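H3K27ac and H3K27me3 native ChIP-seq was deposited as 1 list of broad peaks for each of 8 samples, 2 for each mark and population. Reads had been mapped by the authors to the mm10 build with BWA 0.7.15 and filtered with SAMtools, and the authors called broad peaks with MACS2 (2.2.7 in the submitters' processing notes) for each replicate against its matched input. The score deposited for each peak was not used. The deposited fold enrichment is a ratio of ChIP to input and gave the percentiles. The deposited −log10 q value served only for a stricter threshold among the alternatives, and the deposited −log10 p was not used. These are calls, not read counts, so depth and its precision are unknown.

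Peaks 500 bp or less apart were merged, keeping the highest fold enrichment as the value of the merged peak. Genes came from GENCODE vM21 (basic). Members, gene lists and marker lists were chosen with earlier results of these data known. Named among other lineage genes were the 3 of each class with the largest difference in mean H3K27ac share whose populations did not overlap, for Olig2, Sox10 and Myrf the 3 closest genes, and neighbouring genes under the same peak. Marker lists of pyramidal neurons, microglia and endothelial cells were also read: H3K27ac-covered bases were higher in CINs and in non-CINs for 1 and 2 of 8, 0 and 1 of 6, and 1 and 0 of 6 genes, beside 11.9% and 12.5% of all genes. Population-only regions were called within replicate numbers, as in the study, but by another rule. Here they are merged peaks with no overlapping peak in the other population, whereas the paper used differential peak calling in MACS2. Calculations used Python 3.11.15, NumPy 2.4.6, pandas 2.3.3 and pysam 0.24.0, and interval operations were tested on simulated data against bedtools 2.31.1. Alternatives covered the peak threshold, list size, window, gene model, merging, scaling and replicates.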

Additional observations from a re-analysis of the deposited data

How the results depend on the processing

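With 2 lists in each group, no value here carries a test, and every count rests on few lists. The precursor minus myelin differences kept their direction with every window, q threshold, list size, gene model and class tried and with each list left out, but H3K27me3-covered bases at Pdgfra, higher in non-CINs, were higher in CINs with 5 kb on both sides of the start. The counts of members with H3K27ac percentiles higher in non-CINs and with H3K27me3 percentiles higher in CINs stayed within 1.5 times of 3 in all alternatives that used all lists. Depth was not known, so weak peaks at Sox10, Pdgfra and Olig1 cannot be weighed by their reads.

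Replicate numbers are shared by the populations, but the labels do not say that a number marks a shared preparation. Deviations of same-numbered lists correlated at 0.586 for H3K27ac-covered bases, 0.287 for H3K27ac percentiles, 0.915 for H3K27me3-covered bases and 0.465 for H3K27me3 percentiles, over 2 pairs. With the replicate block, H3K27ac-covered bases were higher in CINs for 2 of 9 members (Pdgfra, Mbp; 19.3% of all genes) and in non-CINs for 2 (Olig1, Olig2; 19.9%), H3K27ac percentiles were higher in CINs for 2 (Sox10, Mog; 22.2%), shares close to those of all genes. H3K27me3-covered bases were higher in CINs for 4 (Olig1, Olig2, Nkx2-2 and, added by the block, Sox10; 6.55%), and the remaining counts of members stayed the same while the percentages of all genes rose, to 16.5% for H3K27ac percentiles higher in non-CINs, 10.4% for H3K27me3-covered bases higher in non-CINs (Pdgfra, 1 of 9, about the general rate), and 6.79% and 9.76% for H3K27me3 percentiles higher in CINs and in non-CINs. Regions marked in one population alone, which were called with the block, numbered 0 without it as well.

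Members covered in all 8 lists came to 2 with −log10 q of at least 4 and to 2 with the strongest 30000 peaks. For H3K27ac-covered bases higher in CINs the count was 0 at that q threshold, 1 (Mbp in place of Pdgfra) with the strongest 30000 peaks and 2 with 10 kb on both sides of the gene. For those higher in non-CINs it was 2 at that q threshold, with the strongest 30000 peaks, with 10 kb flanks, with 5 kb on both sides of the start, and with peaks not merged, the last chosen after seeing the data. For H3K27ac percentiles higher in CINs it was 0 at that q threshold, with the strongest 30000 peaks and without the upstream part, and 2 with 5 kb around the start. For H3K27me3-covered bases higher in non-CINs it was 0 when scaled to list length, at that q threshold and with 5 kb around the start. For those higher in CINs it was 0 with 10 kb flanks, 2 when scaled to list length (Olig1, Sox10), 2 at that q threshold and with RefSeq gene ends (Olig1, Olig2), 2 without the upstream part (Olig2, Nkx2-2), and 3 with 5 kb around the start (Olig1, Olig2, Pdgfra). Over these settings, 9.96% to 14.0% of all genes met the condition for H3K27ac-covered bases in either direction, 12% to 15.4% for H3K27ac percentiles higher in CINs and 1.68% to 6.05% for H3K27me3-covered bases in either direction. The central 300 bases of the strongest H3K27ac peak were also searched in each of the 4 lists. Of the 5 members with a promoter, ACAAAG was found in any list for 3, CATCTG for 4 and CAGCTG for 1. The promoters of 0, 2 and 0 held them, but up to 4 stretches were searched for each member against 1 promoter. The counts therefore cannot be compared, and the share over all H3K27ac peaks was not computed. Outside these 5 members, ACAAAG was found at Sox10 in all 4 lists and at Olig1 in the first non-CIN list. CAGCTG was found at Olig1 in the second non-CIN list. Without merging, 1 region with H3K27ac in CINs alone lay in a window, that of Pdgfra.

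The precursor minus myelin difference in median share, in percentage points for H3K27ac in CINs and non-CINs and H3K27me3 in CINs and non-CINs, was 8.35, 10.8, 30.5 and 26.1 with Myrf among the precursor genes, 25.9, 27.3, 67.9 and 52.9 without the upstream part, 9.78, 10.3, 32.5 and 31.8 with 10 kb flanks, and 17.7, 16.5, 85.9 and 74.9 with 5 kb around the start. The H3K27ac differences were 9.1 and 19.0 at the q threshold, 8.49 and 15.6 with the strongest 30000 peaks and 17.6 and 19.3 with RefSeq gene ends. The H3K27me3 difference in non-CINs was 35.2 at the q threshold and 37.6 with the strongest 30000 peaks. The cause of these changes was not tested.

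With 1 list left out, the lone list stands for its group. H3K27ac-covered bases were then higher in CINs for 1 to 3 members (14.9% to 32.2% of all genes) and in non-CINs for 2 to 4 (15.5% to 29.7%), and H3K27ac percentiles for 2 to 3 (18.1% to 31.0%) and 3 to 4 (14.2% to 27.8%). H3K27me3-covered bases were higher in CINs for 3 to 5 (4.76% to 12.6%) and in non-CINs for 1 to 3 (6.25% to 17.2%), and H3K27me3 percentiles for 3 to 5 (7.43% to 10.7%) and 1 to 2 (9.01% to 15%). The class differences ranged from 18.2 to 19.8, 20.0 to 21.6, 49.3 to 54.9 and 40.3 to 43.2. From 1 replicate number, regions within the windows marked in one population alone numbered 3 for H3K27ac in CINs, 1 to 3 in non-CINs, 0 to 2 for H3K27me3 in CINs and 0 to 1 in non-CINs.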
